A study of Mus musculus with 6 samples.

Results

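The guidance family of ephrins, Eph receptors, semaphorins, plexins, Slit, Robo and Unc5 was examined in endothelial cells sorted from the bone marrow of diabetic and nondiabetic mice. Its members were chosen by gene symbol: every Epha, Ephb, Efna, Efnb, Sema and Plxn gene, Robo1 to Robo4, Slit1 to Slit3 and Unc5a to Unc5d with a probe set naming it alone. This gave 62 of the 22180 genes that have such a probe set. Of the 62, Plxna4os1 is an RNA from the strand opposite Plxna4 rather than a plexin. The 3 diabetic arrays came from male C57BL/6J mice with diabetes from high-fat feeding, a model of type 2 diabetes, and the 3 nondiabetic arrays from male C57BL/6J mice labelled as controls. All 6 samples carry one diet text, 60 kcal% fat for 4 months, so the labels do not settle what the control mice ate, and they give no age. For each array 5000 cells were sorted. Nothing in the labels tells whether replicates are separate mice, so the p-values reflect only how far these samples scatter, and that scatter may be technical.

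Ephrins are ligands tethered to the cell surface, and Eph receptors are the receptor tyrosine kinases that bind them on a neighbouring cell; both partners can signal into their own cell. Ephrin-A ligands hang on a lipid anchor, whereas ephrin-B ligands cross the membrane. Semaphorins, secreted or membrane-bound, act through plexins, often with neuropilins as co-receptors, and Slit proteins act through Robo receptors. These families are known as cues for growing axons, and in blood vessels members of them steer sprouting, set the border between arteries and veins and act on barrier function. Ephrin-B2 is a classical marker of arterial and EphB4 of venous endothelium, and Robo4 is the Robo receptor typical of endothelium.

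The sequences just upstream of Efnb2 and Ephb4 are shown because this artery and vein pair carries the comparison described below. They are the 250 bases before the transcription start in RefSeq, build GRCm38.p6, given on the gene's own strand: minus for Efnb2 at chr8:8661243-8661492 and plus for Ephb4 at chr5:137349859-137350108. Capitals mark the GC box GGGCGG and the motif GGAAG, each searched on both strands and able to overlap. GGAAG contains the ETS core GGAA, and GGAA followed by another base was neither marked nor counted.
Efnb2: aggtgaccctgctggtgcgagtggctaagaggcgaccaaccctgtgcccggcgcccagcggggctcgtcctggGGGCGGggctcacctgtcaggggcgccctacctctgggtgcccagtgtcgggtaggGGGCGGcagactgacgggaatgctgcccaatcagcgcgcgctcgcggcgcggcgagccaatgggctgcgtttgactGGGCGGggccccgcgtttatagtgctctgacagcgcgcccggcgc
Ephb4: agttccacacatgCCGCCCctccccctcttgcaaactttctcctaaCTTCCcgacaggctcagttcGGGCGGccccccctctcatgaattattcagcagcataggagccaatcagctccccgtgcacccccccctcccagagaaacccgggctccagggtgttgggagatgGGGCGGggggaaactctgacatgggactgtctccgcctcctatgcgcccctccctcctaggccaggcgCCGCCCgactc
The Efnb2 window held 3 GC boxes and 27 CpG dinucleotides, and the Ephb4 window held 4 GC boxes, 1 GGAAG and 12 CpG dinucleotides. RefSeq gave such windows for 53 of the 62 members, 69 windows in all. Of these, 49 (71%) held a GC box and 47 (68.1%) held GGAAG. Over all 32851 windows of the same length the shares were 32.7% and 64.1%. Those windows cover 27025 genes and were not limited to genes of the array. The median CpG count was 15 in the members' windows against 6 in all windows, and the median GC content 64% against 52.4%. A GC box lay in 78.7% of the windows of tested members and in 54.5% of those of dim members. A match is a description of these letters and not a shown binding site.

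Expression was measured as log2 values made by RMA, and a gene with several probe sets took its brightest one. Array medians ran from 5.21 to 5.28, and precision is limited by having 3 arrays in each group. Genes with a mean under 5.07, the 40th percentile, were left out as dim, which kept 41 of the 62 members (66.1%) and 13308 of all genes (60%). All 12 markers of endothelium in general, such as Cdh5 and Pecam1, lay above that limit, with a mean per array of 9.24 to 9.98. The leukocyte marker Ptprc also lay above it, at 8.76 to 9.43, as did 2 of 6 T and NK cell markers (mean per array 6.75 to 7.83) and 3 of 7 stromal markers (5.25 to 5.46). The 6 measured megakaryocyte and platelet markers lay above the limit too (mean per array 8.28 to 9.45). The same held for 7 of 7 pericyte and smooth muscle markers (7.34 to 7.73) and the 4 measured erythroid markers (6.66 to 7.07). The T and NK markers Cd3e, Cd3g, Cd8a and Klrd1 and the stromal markers Lepr, Pdgfra, Ibsp and Sp7 were dim. The part of other cell types in the members' values was not tested.

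No member of the family passed the test for a difference between diabetic and nondiabetic endothelium. By limma with Benjamini-Hochberg adjustment over all tested genes, 0 of 41 tested members were called, where 0.00751% of all tested genes were, and the smallest adjusted p of a member was 0.997. At an unadjusted p under 0.05 the count was also 0, against 4.25% of all tested genes. The 3 arrays of one group lay all above or all below those of the other for 1 member, Ephb3, which was lower in diabetic cells; this held for 7.95% of tested genes in either direction and for 2.67% in that one. Of the 41 members, 19 had a higher and 22 a lower mean in diabetic cells, where 54% of all tested genes were higher and 46% lower, with a median log2 difference of -0.02, against 0.02 over all tested genes. All 41 of the unadjusted 95% intervals included 0, and for 38 members the interval lay within 1 log2 unit, a 2-fold change, on either side. The median distance from a difference to the end of its unadjusted interval was 0.47 log2 units. Changes smaller than this were hard to see with this number of arrays. Larger changes could also go uncalled, since calls used p adjusted over all tested genes.

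**Figure D1:**
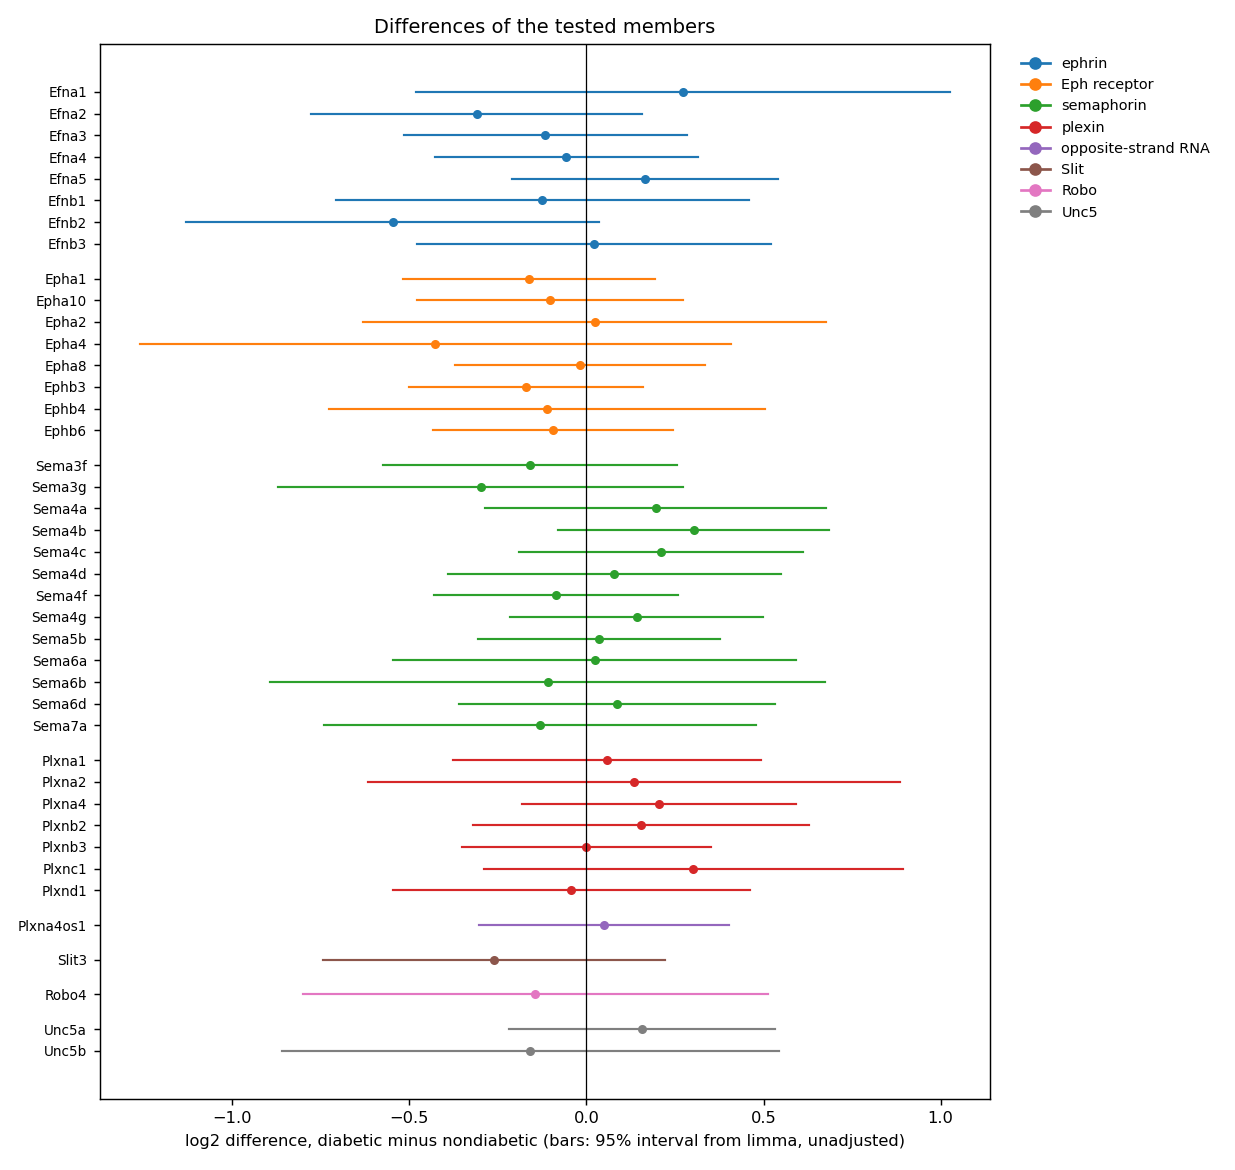
Log2 difference, diabetic minus nondiabetic, for each of the 41 tested members (x axis, points), with the unadjusted 95% interval from limma (bars) and colours for the role. Every interval crosses 0, and the point farthest from 0 is Efnb2 at -0.55.

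Among the ephrins, all 8 genes lay above the limit for dim genes, and the member with the smallest p was Efnb2. Efnb2, the transmembrane ligand that marks arteries, stood at 8.83, 8.13 and 7.89 in diabetic cells, against 8.80, 9.03 and 8.66 in nondiabetic cells. Diabetic replicates 2 and 3 lay below all nondiabetic arrays, while diabetic replicate 1 lay among them. The means were 8.28 ± 0.49 in diabetic and 8.83 ± 0.19 in nondiabetic cells (SD, n = 3 each), and the log2 difference of -0.55 (SE 0.25) had an interval of -1.13 to 0.04 (limma adjusted p = 0.997). This is 1.46-fold lower in diabetic cells, with an interval running from a ratio of 0.457 to one of 1.03.

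The other ephrins gave smaller differences or wider spreads. Efna2, a lipid-anchored ligand, stood at 6.46, 6.92 and 7.05 in diabetic cells, against 6.94, 7.34 and 7.08 in nondiabetic cells, a difference of -0.31 (SE 0.20). Efnb1, a transmembrane ligand, stood at 8.36, 7.56 and 7.75 in diabetic cells, against 7.65, 8.19 and 8.20 in nondiabetic cells, a difference of -0.12 (SE 0.25). Diabetic replicate 1 was the highest array for Efnb1 and the lowest for Efna2, and in both genes the groups overlapped. Efna1, which tumour necrosis factor is known to induce in endothelium, had means of 7.86 ± 0.29 in diabetic and 7.59 ± 0.67 in nondiabetic cells (SD, n = 3 each), and its nondiabetic arrays spread from 6.91 to 8.25. The differences of Efna3, Efna4, Efna5 and Efnb3 lay between -0.12 and 0.17, and the means of these 4 genes were within 0.5 of the limit for dim genes.

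**Figure D2:**
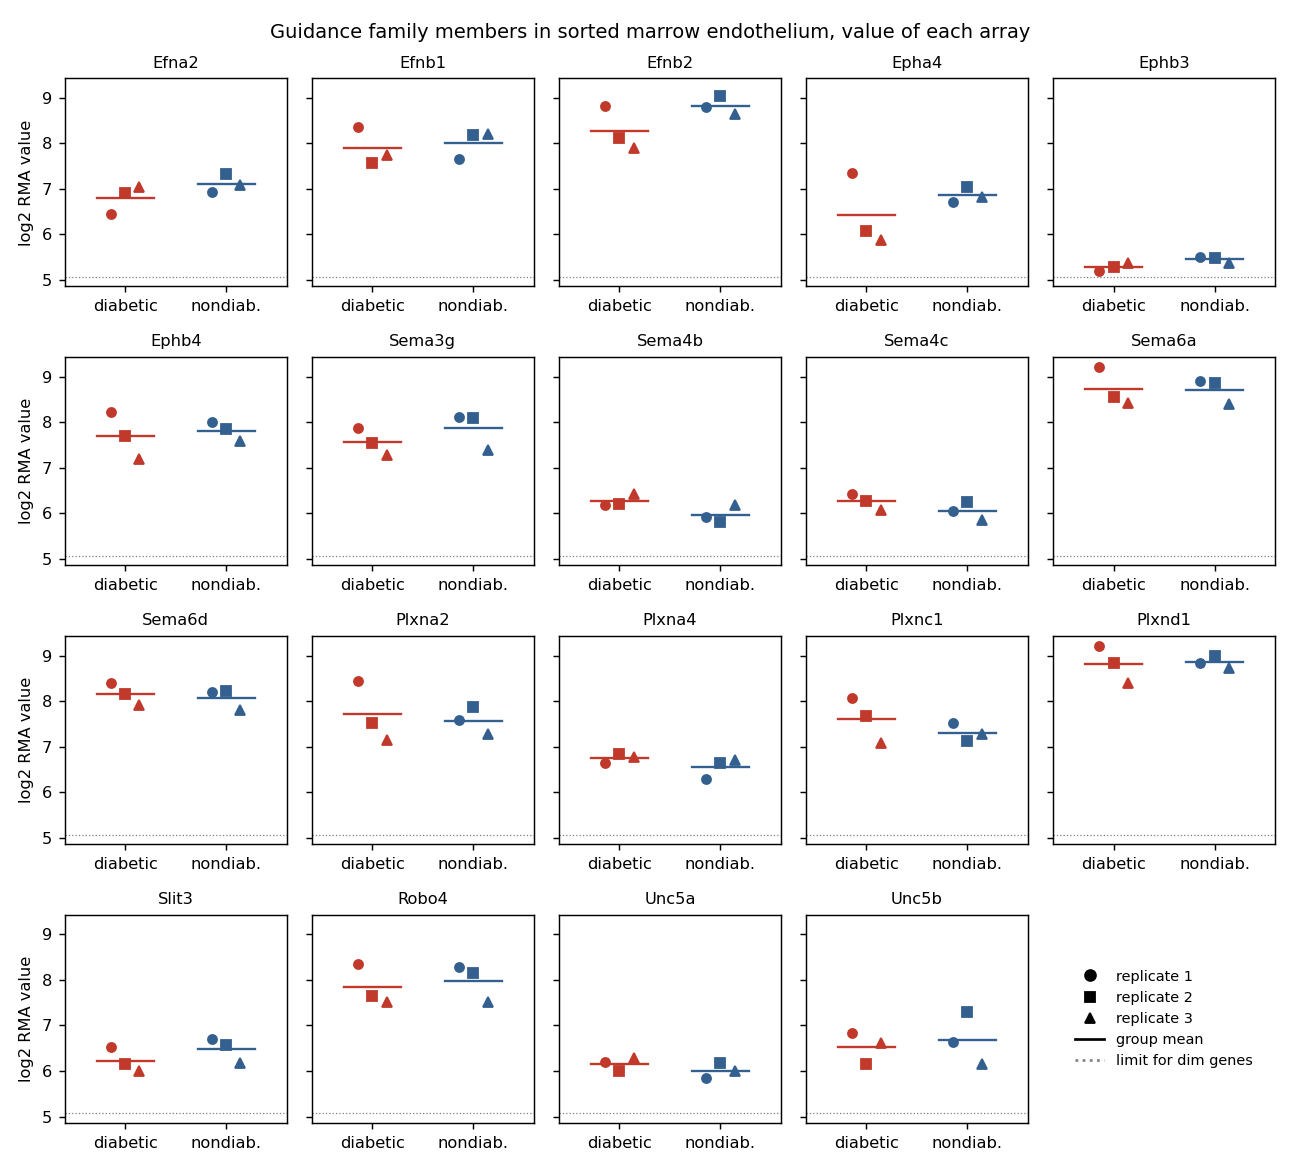
Log2 RMA value (y axis) of each array for the 19 named members, with diabetic arrays in red on the left and nondiabetic arrays in blue on the right of each panel; shapes mark the replicate, lines the group means and the dotted line the limit of 5.07 for dim genes. In most panels the groups overlap, and diabetic replicate 1 stands above the other diabetic arrays in genes such as Epha4 (7.36) and Plxna2 (8.45).

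Of the 13 Eph receptors, 8 were tested, with 1 higher and 7 lower mean in diabetic cells and differences between -0.43 and 0.02. Epha4, a receptor that binds ephrins of both classes, stood at 7.36, 6.07 and 5.87 in diabetic cells, against 6.72, 7.05 and 6.82 in nondiabetic cells. Diabetic replicates 2 and 3 lay below all nondiabetic arrays and replicate 1 above them, and the difference of -0.43 (SE 0.36) had an interval of -1.26 to 0.41. Without diabetic replicate 1 it was -0.89 (limma adjusted p = 0.799), and without diabetic replicate 3 it was -0.14. Ephb3 stood at 5.20, 5.28 and 5.38 in diabetic cells, against 5.50, 5.49 and 5.38 in nondiabetic cells. Its groups did not overlap, but the highest diabetic and the lowest nondiabetic array were alike to the second decimal, all values were near the limit for dim genes, and the difference was -0.17 (SE 0.14). Ephb4, the venous receptor for ephrin-B2, stood at 8.24, 7.69 and 7.19 in diabetic cells, against 8.01, 7.86 and 7.59 in nondiabetic cells. The diabetic arrays held both the highest and the lowest value, and the difference of -0.11 (SE 0.27) had an interval of -0.73 to 0.50. Epha2, a receptor of epithelium and activated endothelium, had means of 5.82 ± 0.46 in diabetic and 5.80 ± 0.41 in nondiabetic cells (SD, n = 3 each). The other tested receptors, Epha1, Epha8, Epha10 and Ephb6, a receptor whose kinase is inactive, differed by -0.16 to -0.02.

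The arterial ligand and the venous receptor were also set against each other within each array, which removes what the array does to both. The Efnb2 value minus the Ephb4 value was 0.60, 0.43 and 0.70 in diabetic cells, against 0.80, 1.17 and 1.07 in nondiabetic cells. The diabetic arrays were the 3 lowest. Single tested genes lacked overlap in 7.95% of cases, and the share over pairs of genes was not computed. The group means were 0.58 ± 0.14 in diabetic and 1.01 ± 0.19 in nondiabetic cells (SD, n = 3 each). They differed by -0.44 log2 units, given as a description without a test. It ranged from -0.54 to -0.36 with any one array left out. As the groups did not overlap, leaving out a single array could change its size but not its sign. Neither gene passed the test on its own. Beside it, the mean of 14 tested arteriolar markers was 7.94, 7.53 and 7.36 in diabetic cells, against 7.88, 8.18 and 7.74 in nondiabetic cells, and 3 of the 14 had a higher mean in diabetic cells. The mean of 12 sinusoidal markers was 8.80, 8.21 and 8.21 in diabetic cells, against 7.93, 7.80 and 7.72 in nondiabetic cells, with 10 of 12 higher. A further arteriolar marker, Gkn3, was dim, and none of these markers was called. In sorted bulk cells a smaller share of arteriolar cells and less Efnb2 RNA per cell cannot be told apart, and the part of the marker shifts in the Efnb2 value was not tested.

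**Figure D3:**
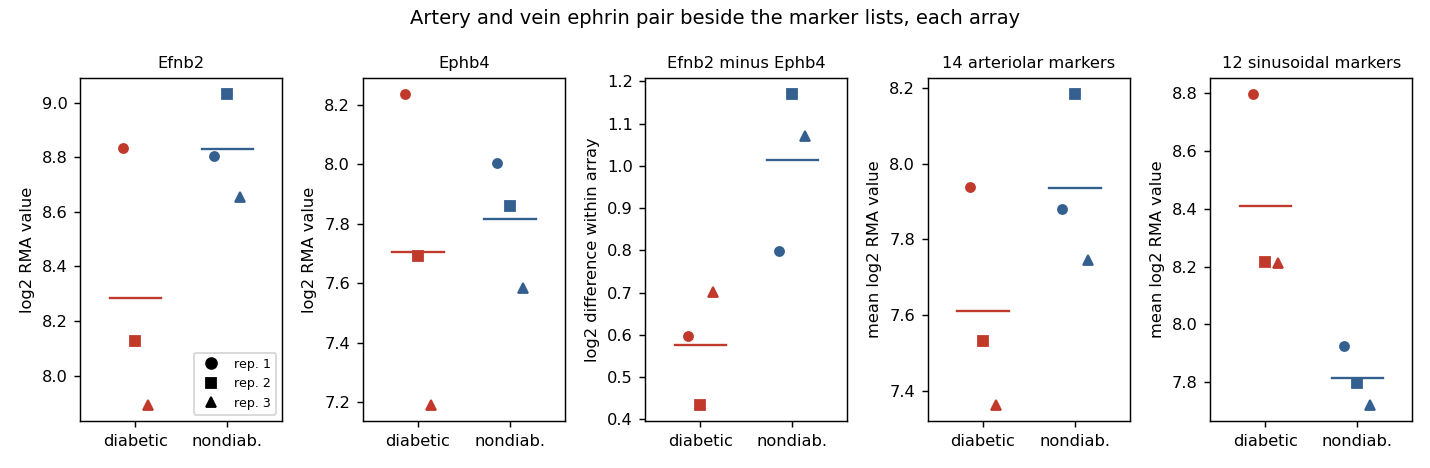
Value of each array (y axes, log2 units) for Efnb2, Ephb4, their difference within the array, the mean of 14 arteriolar markers and the mean of 12 sinusoidal markers, with diabetic arrays in red on the left and nondiabetic arrays in blue on the right; lines are group means, and the axes differ and do not start at 0. The within-array difference is 0.43 to 0.70 in diabetic and 0.80 to 1.17 in nondiabetic cells.

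Of the 20 semaphorins, 13 were tested, with 8 higher and 5 lower means in diabetic cells and a median difference of 0.04. Sema3g, a secreted semaphorin of arterial endothelium that acts through neuropilin-2, stood at 7.88, 7.56 and 7.28 in diabetic cells, against 8.12, 8.10 and 7.39 in nondiabetic cells. The groups overlapped only through nondiabetic replicate 3, and the difference of -0.30 (SE 0.25) ranged from -0.54 to -0.15 with single arrays left out, the first of these without that array. Sema3f, a secreted semaphorin that restrains vessel sprouting, had means of 7.66 ± 0.27 in diabetic and 7.82 ± 0.12 in nondiabetic cells (SD, n = 3 each).

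The membrane-bound class 4 semaphorins held the smallest p-values of the group. Sema4b stood at 6.18, 6.21 and 6.42 in diabetic cells, against 5.91, 5.80 and 6.18 in nondiabetic cells, and the difference was 0.30 (SE 0.17, limma adjusted p = 0.997). Sema4c, a ligand of plexin-B2, stood at 6.43, 6.27 and 6.08 in diabetic cells, against 6.05, 6.25 and 5.85 in nondiabetic cells, a difference of 0.21 (SE 0.17). In both genes 1 nondiabetic array reached into the diabetic range. Sema4a and Sema4d, which leukocytes also carry and which act on immune cells, differed by 0.20 and 0.08, and Sema4g and Sema4f by 0.14 and -0.09. The mean of the tested monocyte markers was 7.66 to 7.82 in diabetic and 7.14 to 7.53 in nondiabetic arrays, with 8 of 8 higher and Adgre1 dim. That of the neutrophil markers was 7.23 to 7.39 in diabetic and 6.63 to 7.14 in nondiabetic arrays, with 6 of 7 higher and Ltf and Camp dim. That of the B lymphoid markers was 6.87 to 7.38 in diabetic and 6.46 to 6.80 in nondiabetic arrays, with 5 of 6 higher and Vpreb1 and Ms4a1 dim. That of the T and NK markers was 6.75 to 7.83 in diabetic and 7.06 to 7.83 in nondiabetic arrays, with 0 of 2 higher. The part of these shifts in the class 4 values was not tested.

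Sema6a, a transmembrane semaphorin that binds plexin-A2 and plexin-A4, stood at 9.22, 8.56 and 8.43 in diabetic cells, against 8.90, 8.85 and 8.39 in nondiabetic cells, a difference of 0.02 (SE 0.25). Sema6d, a ligand of plexin-A1, stood at 8.41, 8.16 and 7.92 in diabetic cells, against 8.20, 8.22 and 7.81 in nondiabetic cells, a difference of 0.09 (SE 0.19). The signs of both turned when diabetic replicate 1 was left out, with differences of -0.22 and -0.04, and when nondiabetic replicate 3 was, with differences of -0.14 and -0.05. Sema7a, which is held by a lipid anchor and also binds integrins, had means of 8.04 ± 0.54 in diabetic and 8.17 ± 0.14 in nondiabetic cells (SD, n = 3 each). Sema6b and Sema5b differed by -0.11 and 0.04.

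Of the 9 plexins, the semaphorin receptors, 7 were tested, with 5 higher and 2 lower means in diabetic cells and differences between -0.04 and 0.30. Plxnd1, the plexin of endothelium that receives Sema3e and guides vessel patterning, stood at 9.21, 8.83 and 8.41 in diabetic cells, against 8.85, 8.99 and 8.74 in nondiabetic cells. The diabetic arrays held both the highest and the lowest value, and the difference of -0.04 (SE 0.22) had an interval of -0.55 to 0.46. Its ligand gene Sema3e was dim in all 6 arrays, at 3.78 to 4.01. Plxna2 stood at 8.45, 7.53 and 7.15 in diabetic cells, against 7.58, 7.87 and 7.27 in nondiabetic cells, a difference of 0.13 (SE 0.33). It was -0.23 without diabetic replicate 1. Plxnc1, the receptor for Sema7a and also a gene of myeloid cells, stood at 8.07, 7.67 and 7.08 in diabetic cells, against 7.51, 7.12 and 7.28 in nondiabetic cells. Diabetic replicates 1 and 2 lay above and replicate 3 below all nondiabetic arrays, and the difference was 0.30 (SE 0.26). It was 0.57 without diabetic replicate 3 and 0.07 without diabetic replicate 1. Plxna4 stood at 6.64, 6.84 and 6.77 in diabetic cells, against 6.29, 6.64 and 6.70 in nondiabetic cells, a difference of 0.21 (SE 0.17). Plxnb2 and Plxna1 differed by 0.15 and 0.06, and the dimmer of the 2 Plxna1 probe sets by -0.14. Plxnb3 averaged 5.34 in diabetic and 5.35 in nondiabetic cells, and the RNA opposite Plxna4 differed by 0.05.

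Of the Slit and Robo genes, Slit3 and Robo4 were tested, and the other 5 were dim. Robo4, which stabilises the endothelial barrier, stood at 8.36, 7.64 and 7.52 in diabetic cells, against 8.28, 8.16 and 7.51 in nondiabetic cells. Each group held high and low arrays, and the difference of -0.145 (SE 0.29) had an interval of -0.80 to 0.51. Slit3, a secreted ligand, stood at 6.53, 6.16 and 5.99 in diabetic cells, against 6.71, 6.57 and 6.17 in nondiabetic cells, a difference of -0.26 (SE 0.21). Unc5b, a netrin receptor of endothelium that also binds Robo4, stood at 6.82, 6.16 and 6.61 in diabetic cells, against 6.63, 7.30 and 6.15 in nondiabetic cells. Its nondiabetic arrays spread wider than its difference of -0.16 (SE 0.30). Unc5a stood at 6.21, 5.99 and 6.28 in diabetic cells, against 5.84, 6.17 and 6.00 in nondiabetic cells, a difference of 0.16 (SE 0.16).

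The 21 dim members had means of 3.57 to 5.03, levels at which the signal may be background. They were Epha3, Epha5, Epha6, Epha7 and Ephb1, the secreted Sema3a to Sema3e, Sema5a, Sema6c, Plxna3, Plxnb1, Robo1 to Robo3, Slit1, Slit2, Unc5c and Unc5d. Many of these are known from the nervous system, though some, such as Sema3e, also act in vessels. In 4 of the 21 dim members the groups did not overlap, so without the filter this held for 5 of 62 members, against 8.25% of all genes. Of these 4, Sema3a, a secreted repellent that acts through neuropilin-1, stood at 5.58, 4.98 and 4.89 in diabetic cells, against 4.55, 4.83 and 4.33 in nondiabetic cells. The diabetic values were the 3 highest, but only diabetic replicate 1 exceeded the limit for dim genes. With no filter the difference of 0.58 (SE 0.22) had an interval of 0.06 to 1.10 (limma adjusted p = 0.997), and it was the 1 difference among 62 with an unadjusted p under 0.05, against 4.12% of all genes. The differences of Epha7, Sema3d and Sema3e were 0.22, -0.16 and -0.12.

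The diabetic arrays spread over a wider range than the nondiabetic arrays in 25 of 41 tested members, against 55.2% of all tested genes, and most widely in Epha4. For 13 tested members with a mean of at least 7, a bound set after the values were seen, diabetic replicate 1 lay above the gene's own mean over the 6 arrays in 13 of 13, by 0.16 to 0.80. Diabetic replicate 3 lay below it in 12 of 13, with a median deviation of -0.39. Diabetic replicate 1 was the highest of the 6 arrays for 10 of these members (76.9%), against 41.5% of the 4689 tested genes with such a mean. Within the diabetic group it was the highest array for 12 of the 13 and replicate 3 the lowest for 11, against 66.8% and 53.5% of those genes. Of the 13, Efna1 and Sema3g spread wider in nondiabetic than in diabetic arrays. The mean of the 12 pan-endothelial markers deviated by 0.46 in diabetic replicate 1, by -0.24 and -0.27 in the other diabetic arrays and by 0.04, 0.26 and -0.25 in the nondiabetic arrays. These genes share arrays, and the part of endothelial content or RNA amount was not tested. Efnb2 deviated by 0.28, -0.43 and -0.67 in the diabetic arrays. With single arrays left out, the limit for dim genes was set anew, so the tested members differ slightly. Without diabetic replicate 1, 11 of 41 tested members, among them Unc5d, which was dim over all 6 arrays, did not overlap between the groups, 5 higher and 6 lower, against 20% of all tested genes in the same 5 arrays. The count was 4 and 6 without diabetic replicates 2 and 3, against 15.8% and 20% of tested genes. It was 5, 3 (of 42 tested) and 6 without nondiabetic replicates 1, 2 and 3, against 16%, 16.7% and 19%.

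**Figure D4:**
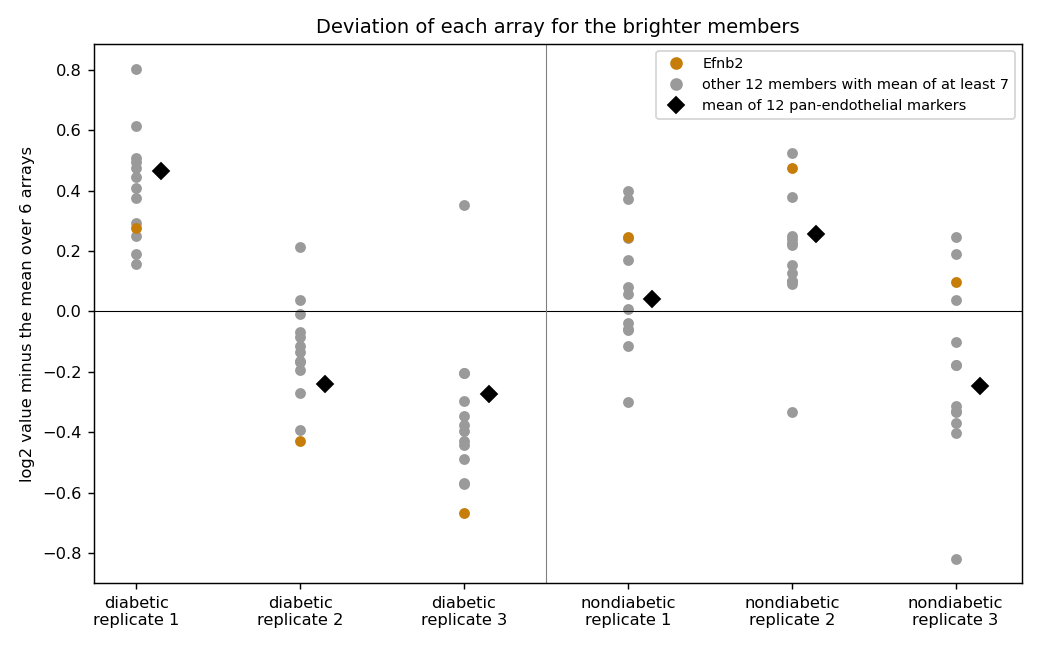
Log2 value of each array minus the gene's mean over the 6 arrays (y axis) for the 13 tested members with a mean of at least 7 (circles, Efnb2 in orange) and for the mean of 12 pan-endothelial markers (black diamonds). In diabetic replicate 1 all members lie 0.16 to 0.80 above their mean, and in diabetic replicate 3 the median is -0.39.

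Among other genes of these pathways, none passed the test. The list held 74 co-receptors, netrins, exchange factors, small GTPases and cytoskeletal effectors, of which 70 were measured and 62 tested. By limma 0 were called, 1 had an unadjusted p under 0.05 and was higher (3.19% of tested genes were so), and 36 had higher and 26 lower means in diabetic cells, with a median difference of 0.05. In 3 genes every diabetic array exceeded the nondiabetic ones, where 5.28% of tested genes did so. These were Met, the hepatocyte growth factor receptor that can associate with B plexins, the kinase gene Abl1 and Limk1, a kinase that acts on cofilin. Met stood at 6.43, 6.30 and 6.10 in diabetic cells, against 6.07, 5.63 and 5.63 in nondiabetic cells, a difference of 0.50 (SE 0.18, interval 0.07 to 0.92, limma adjusted p = 0.997). Abl1 and Limk1 differed by 0.32 (SE 0.15) and 0.33 (SE 0.16), and Srgap3, a GTPase-activating protein downstream of Slit and Robo, by 0.55 (SE 0.27) with overlap.

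The Efnb2 difference was negative in all 16 other ways of processing the data, but several of these could not change it. Filters, the variance model and the replicate block leave a difference as it is. So do the probe set rules, as Efnb2 has 1 probe set, and under all of these it stayed at -0.55. Its size depended on the arrays used. It was -0.82 without diabetic replicate 1 (interval -1.26 to -0.39, limma adjusted p = 0.799) and -0.35 without diabetic replicate 3 (interval -0.94 to 0.24, limma adjusted p = 0.965). Array weights were also used, estimated from how closely each array followed its group mean and not from a measured quality. Diabetic replicates 1, 2 and 3 received weights of 0.491, 2.96 and 0.672, so that replicate 2 dominated the diabetic mean. With these weights the Efnb2 difference was -0.67 (interval -1.12 to -0.22, limma adjusted p = 0.485). With the pan-endothelial mean of each array as a covariate, chosen after seeing the data, it was -0.51 (interval -0.86 to -0.16, limma adjusted p = 0.848). The adjusted p ranged from 0.485 to 1 over these alternatives, and 0 of them called Efnb2.

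**Figure D5:**
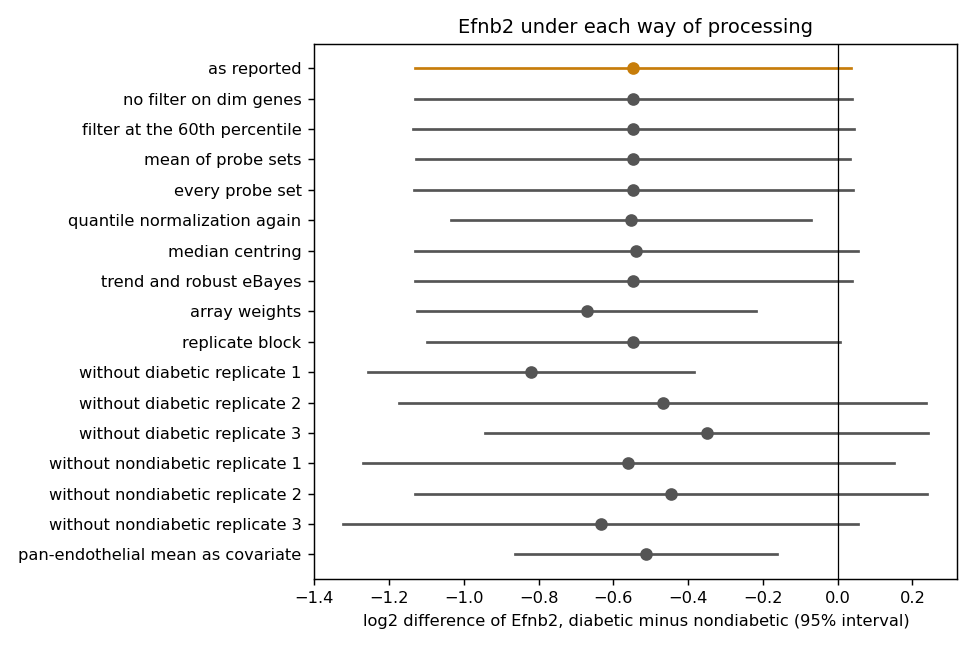
Log2 difference of Efnb2, diabetic minus nondiabetic (x axis, points), with its unadjusted 95% interval (bars), as reported (orange) and under each of the 16 alternatives (grey). All points lie between -0.82 and -0.35.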

How the data were processed

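The values the authors deposited are on a log2 scale and come from RMA, per the submitters' processing notes. Which program and annotation they used is not given in the sources used here. RNA of sorted cells was amplified and labelled with biotin, per the labels' protocols. Of 41345 probe sets, 23521 named 1 gene, 1814 several and 16010 none in the supplied platform annotation, which can be old; Ephb2 is not analysed here. A gene took its brightest probe set by the mean over 6 arrays, and genes under the 40th percentile (5.07) were left out. The test was limma 3.58.1 under R 4.3.3 (lmFit, eBayes, no covariates), with Benjamini-Hochberg adjustment over 13308 genes and a threshold of 0.05. Differences are diabetic minus nondiabetic.

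The members, lists and tests were chosen with earlier results of these data known. Named were, per role, the 2 tested members with the smallest p and the 2 with the highest mean, any without overlap, the vascular members Efnb2, Ephb4, Robo4, Unc5b, Plxnd1 and Sema3g, and the 4 pathway genes with the smallest p. Members named beyond these were chosen after their values were seen. The procedure was checked on simulated data drawn for each gene independently. Deviations shared by the genes of an array were not simulated. Alternatives changed the filter, probe set rule, normalization, variance model, array weights, replicate block and arrays used. Promoter sequences are from RefSeq.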

Additional observations from a re-analysis of the deposited data

How the results depend on the processing

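Under all 16 alternatives 0 members and 0 of the other pathway genes were called by limma, and the smallest adjusted p of a member was 0.485. The family median ranged from -0.07 to 0.05. The count of members without overlap, 1 as reported, was 5 with no filter on dim genes and 0 when the 60th percentile was the limit (8.04% of the genes left), where Ephb3 dropped out, and 3 to 11 with single arrays left out, where fewer values must be separated. Of 19 named members, 11 kept their direction throughout, though some alternatives could not turn it. Filters, the variance model and the replicate block leave a difference as it is. So do the probe set rules here, as each named member has 1 probe set. With array weights Plxna2 and Sema6a differed by -0.0227 and -0.12. With single arrays left out, the differences ranged from -0.36 to 0.0417 for Efnb1, -0.38 to 0.15 for Ephb4, -0.23 to 0.41 for Plxna2, -0.24 to 0.16 for Plxnd1, -0.40 to 0.02 for Robo4, -0.22 to 0.18 for Sema6a, -0.0482 to 0.21 for Sema6d and -0.43 to 0.14 for Unc5b; the cause was not tested. Same-numbered arrays did not deviate together (correlations across genes of -0.036, -0.064 and 0.016). With 3 arrays in each group this cannot show whether the numbers pair the samples. With the replicate block 0 members were called and Efnb2 differed by -0.55. How far the dim members lie above background was not measured.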

Other observations

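Some members lie next to each other among protein-coding genes in RefSeq assembly GRCm38.p6. Efna1, Efna3 and Efna4 follow each other on chromosome 3, and their differences were 0.27, -0.12 and -0.06. Robo4, tested here, is the neighbour of Robo3, which was dim at 4.46 ± 0.03 in diabetic and 4.56 ± 0.16 in nondiabetic cells (SD, n = 3 each). Sema3d and Sema3a, both dim, are neighbours on chromosome 5, and their differences were -0.16 and 0.58.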
